A study of Mus musculus with 16 samples.

Results

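The expression of 10 genes of the elastic fibre and its microfibrils was followed through RNA sequencing of mouse lung endothelial cells (MLECs). They are *Fbn1*, *Ltbp1*, *Ltbp2*, *Eln*, *Fbln5*, *Efemp2*, *Lox*, *Loxl2*, *Adamtsl2* and *Adamtsl4*, and they make 10 of the 55414 genes listed in the deposited table. They were matched by gene symbol. *Adamtsl2* and *Eln* were chosen by their measured values, as genes known to be lower in ligand-treated KO cells than in ligand-treated Ctrl cells of these same libraries, and the other 8 genes were added as partners of the same structure. The values of *Adamtsl2* and *Eln* in that comparison are therefore given as a description, with no test. All 10 genes passed the filter on low counts. *Adamtsl2* passed it only through its ligand-treated libraries, since 0 of the 8 PBS-treated libraries lay above the cutoff of 0.625 CPM (counts scaled to library size and normalised by TMM).

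MLECs came from 4 independent isolations, by selection on CD31- and then ICAM2-coated beads, and each isolation is a cell line. The mice carried *Rosa26*-CreERT2, floxed *Eng* (Eng fl/fl) and the Immorto transgene. In each line, KO cells had received 4-OH-tamoxifen and Ctrl cells only vehicle, so that the deletion and the drug cannot be told apart. After serum starvation, Ctrl cells were given PBS or BMP9 in complex with monomeric soluble endoglin (sENG(M):BMP9), and KO cells were given PBS or BMP9 with its prodomain (pro:BMP9), both at 0.2 ng/ml for 90 minutes. The form of the ligand and the genotype cannot be told apart either. The lines had been expanded in medium with interferon-γ and SB431542, an inhibitor of the TGF-β type I receptors, and all 4 groups shared this. Each of the 4 groups held 4 libraries, 1 from each isolation, which makes 16 libraries of 14869115 to 17242117 counts. *Eng*, the deleted gene, had 375 to 776 CPM in the Ctrl libraries and 40.1 to 130 CPM in the KO libraries, so that the ranges did not overlap. It was higher with ligand in both genotypes. In Ctrl cells it had 375 to 594 CPM with PBS and 525 to 776 CPM with ligand. In KO cells it had 40.1 to 60.0 CPM with PBS and 115 to 130 CPM with ligand. All 10 endothelial markers examined were expressed, with a summed level of 3297 to 7238 CPM. Defining markers of leukocytes (*Ptprc*, at most 0.317 CPM) and of lung epithelium (*Epcam*, at most 0.252 CPM, and *Sftpc*, at 0 in every library) were at or near 0. Other genes of these lists were expressed, among them *Cd68* (27.3 to 40.2 CPM), *Lyz2* (3.07 to 13.5 CPM) and *Krt18* (46.0 to 177 CPM). Markers of fibroblasts and smooth muscle were present and differed between the isolations, as given with the results below. In bulk libraries such as these, fewer cells of a type and less RNA per cell cannot be told apart.

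Elastic fibres give arteries, skin and lung their recoil. They form when tropoelastin, the product of *Eln*, is deposited on a scaffold of fibrillin microfibrils, guided there by fibulins and crosslinked by lysyl oxidases. The same microfibrils bind the latent TGF-β binding proteins (LTBPs) and several BMPs, and so hold growth factors of this superfamily in the matrix. ADAMTS-like proteins resemble the ADAMTS proteases but lack the protease domain, and bind to the microfibril. Mutations in *ADAMTSL2* and *FBN1* both cause the short-stature disorder geleophysic dysplasia. BMP9 circulates in blood and signals in endothelial cells through the receptor ALK1 and SMAD1/5, with endoglin as a co-receptor.

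*Adamtsl2* (ENSMUSG00000036040) lies on chromosome 2 from 26969391 to 26998993 on the plus strand (GRCm39), and its canonical transcript has 19 exons. *Adamtsl4* (ENSMUSG00000015850) lies on chromosome 3 from 95583511 to 95595228 on the minus strand, with 18 exons. The 250 bases before the RefSeq start of each are shown here because the first gene was the one most changed by ligand of all 10 and the second is its family relative in the set. Coordinates of these promoters are in GRCm38.p6, and the sequences, from RefSeq, are written on the strand of the gene. Capitals mark the motifs searched: GGCGCC and GGAGCC, to which SMAD1/5 proteins bind, GTCTAGAC, the palindrome bound by SMAD3 and SMAD4, all on both strands (GGAGCC reads GGCTCC on the other strand), and TATAAA on the strand of the gene.
Adamtsl2 (chr2:27079129-27079378, plus strand): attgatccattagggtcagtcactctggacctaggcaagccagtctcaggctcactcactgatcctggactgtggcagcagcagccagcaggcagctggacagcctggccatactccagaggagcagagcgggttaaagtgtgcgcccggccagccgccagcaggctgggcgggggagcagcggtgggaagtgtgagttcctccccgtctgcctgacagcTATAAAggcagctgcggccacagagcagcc
Adamtsl4 (chr3:95687918-95688167, minus strand): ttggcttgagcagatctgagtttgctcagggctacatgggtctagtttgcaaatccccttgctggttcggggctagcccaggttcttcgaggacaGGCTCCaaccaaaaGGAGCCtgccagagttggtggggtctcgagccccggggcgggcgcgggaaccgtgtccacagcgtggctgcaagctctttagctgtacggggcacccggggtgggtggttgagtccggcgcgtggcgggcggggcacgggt
The window of *Adamtsl2* held 1 TATAAA, whose first base lay 30 bases upstream of the start, and 0 of the other motifs. That of *Adamtsl4* held 2 copies of GGAGCC, 1 in each orientation. Of 32851 RefSeq promoters cut to the same 250 bases, 7.59% held TATAAA on the strand of the gene, 9.59% held GGCGCC, 26% held GGAGCC and 0.167% held GTCTAGAC. The *Adamtsl2* window was 62.8% G and C and the *Adamtsl4* window 64.4%, against a median of 52.4% over all promoters. A RefSeq promoter was matched for 7 of the 10 genes (*Eln*, *Lox* and *Loxl2* were not matched), and of the other 5, windows of *Fbln5* and *Efemp2* held GGCGCC and 1 of 2 windows of *Ltbp1* held GGAGCC. These matches describe letters in a window and say nothing about binding. All of the 10 genes but *Fbln5* overlap annotated genes on the opposite strand, among them *Adamtsl2* (*Gm36882*), *Eln* (*Gm30003*), *Lox* (*Gm41724*), *Efemp2* (*Mus81*) and *Loxl2* (*R3hcc1*). On the same strand, *Ltbp1* overlaps *Gm6276* and *Loxl2* overlaps *Mir6950*. The libraries were stranded but the strand setting of the counting is not given in the sources used here.

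Levels between genes were compared per length, as CPM per kilobase of gene length (RPKM) over all 16 libraries. The crosslinking enzyme *Loxl2* was highest (25.6 ± 11.0 RPKM, SD over 16 libraries), followed by *Efemp2* (21.5 ± 4.88), *Lox* (19.6 ± 9.95) and *Adamtsl4* (17.4 ± 3.55). Each of these 4 genes differed in mean from its neighbour in this order by less than the spread of either. *Fbn1* (11.3 ± 3.28 RPKM), *Fbln5* (9.85 ± 5.44) and *Ltbp1* (7.91 ± 3.19) came next and were not set apart from each other. *Ltbp2* (1.90 ± 1.42 RPKM) was below these, and its highest library (4.19 RPKM) lay under the lowest of *Ltbp1* (5.09 RPKM). *Eln* (0.912 ± 0.640 RPKM) and *Adamtsl2* (0.475 ± 0.640) were lowest. Per length, transcripts of the crosslinking enzymes, fibulins and fibrillin-1 were therefore above that of elastin in the mean over these libraries.

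*Adamtsl2* changed most with ligand. Its PBS-treated Ctrl cells had 7, 3, 4 and 4 counts in isolations 1 to 4, and the sENG(M):BMP9-treated Ctrl cells of the same isolations had 110, 82, 213 and 297 counts. The PBS-treated KO cells had 3, 3, 5 and 3 counts, and the pro:BMP9-treated KO cells had 26, 35, 130 and 73. Every ligand-treated library was above every PBS-treated library, in both genotypes (2.51% of all tested genes were set apart upwards in this way in Ctrl cells and 1.82% in KO cells). In CPM, the mean rose from 0.283 ± 0.116 (SD, n = 4) to 10.4 ± 5.44 in Ctrl cells. In KO cells it rose from 0.216 ± 0.0570 to 4.30 ± 3.05 CPM (n = 4 each). The fitted rise was 5.18 on the log2 scale (standard error, SE, 0.328, adjusted p = 2.37e-09, edgeR) in Ctrl cells and 4.24 (SE 0.390, adjusted p = 5.63e-07, edgeR) in KO cells. Because the PBS counts were so few, the size of the rise is known only roughly. From the counts summed over the 4 isolations, 702 against 18 in Ctrl cells gave a ratio of 37.6 (95% exact interval 23.6 to 63.8), and 264 against 14 in KO cells gave 20.0 (11.7 to 37.0). These intervals cover counting error only. The induction of *Adamtsl2* was known when the genes were chosen, and the ligand-treated libraries are those in which *Adamtsl2* and *Eln* were chosen, so the p-values of both genes against PBS add no independent support.

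The fold rise of *Adamtsl2* ran over a wide range between cell lines, with 1 library behind each value. In Ctrl cells the CPM after sENG(M):BMP9 was 14.4, 27.9, 51.6 and 71.0 times that after PBS in isolations 1 to 4. In KO cells the corresponding values for pro:BMP9 were 9.42, 11.2, 28.1 and 27.0. Isolations 3 and 4 thus had the larger response in both genotypes, with fold values that rest on 3 to 7 counts in the denominator. The level after ligand, which does not rest on that denominator, was also higher in isolations 3 and 4 than in 1 and 2: 6.54, 5.49, 12.4 and 17.2 CPM in Ctrl cells and 1.79, 2.20, 8.43 and 4.77 CPM in KO cells.

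*Eln* (ENSMUSG00000029675, chromosome 5, 134731447 to 134776177, minus strand), which encodes tropoelastin, was the other gene of the 10 that passed the test after ligand. It was chosen on these ligand-treated libraries, so its p-values here add no independent support. In Ctrl cells, *Eln* had 9.68, 5.45, 3.36 and 3.20 CPM with PBS (isolations 1 to 4) and 20.5, 15.6, 5.35 and 8.78 CPM with sENG(M):BMP9. In KO cells it had 7.11, 5.36, 2.59 and 2.06 CPM with PBS and 13.5, 7.36, 4.22 and 3.99 CPM with pro:BMP9. The ligand-treated library was the higher of its isolation in 4 of 4 isolations in both genotypes, whereas the groups as a whole overlapped, since isolations 1 and 2 had more *Eln* than isolations 3 and 4 in every group. *Eln* rose by a log2 fold change of 1.21 (SE 0.135, adjusted p = 4.34e-06, edgeR) in Ctrl cells, with a fold of 1.59 to 2.86 between isolations. In KO cells it rose by 0.75 (SE 0.150, adjusted p = 0.00311, edgeR), with a fold of 1.37 to 1.93. The test depended on comparing cells of the same line: without the isolation (replicate) block the adjusted p was 0.745 with sENG(M):BMP9 and 1.00 with pro:BMP9. Without isolation 1, the rise of *Eln* in KO cells had an adjusted p of 0.0957 (log2 fold change 0.66).

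**Figure D1:**
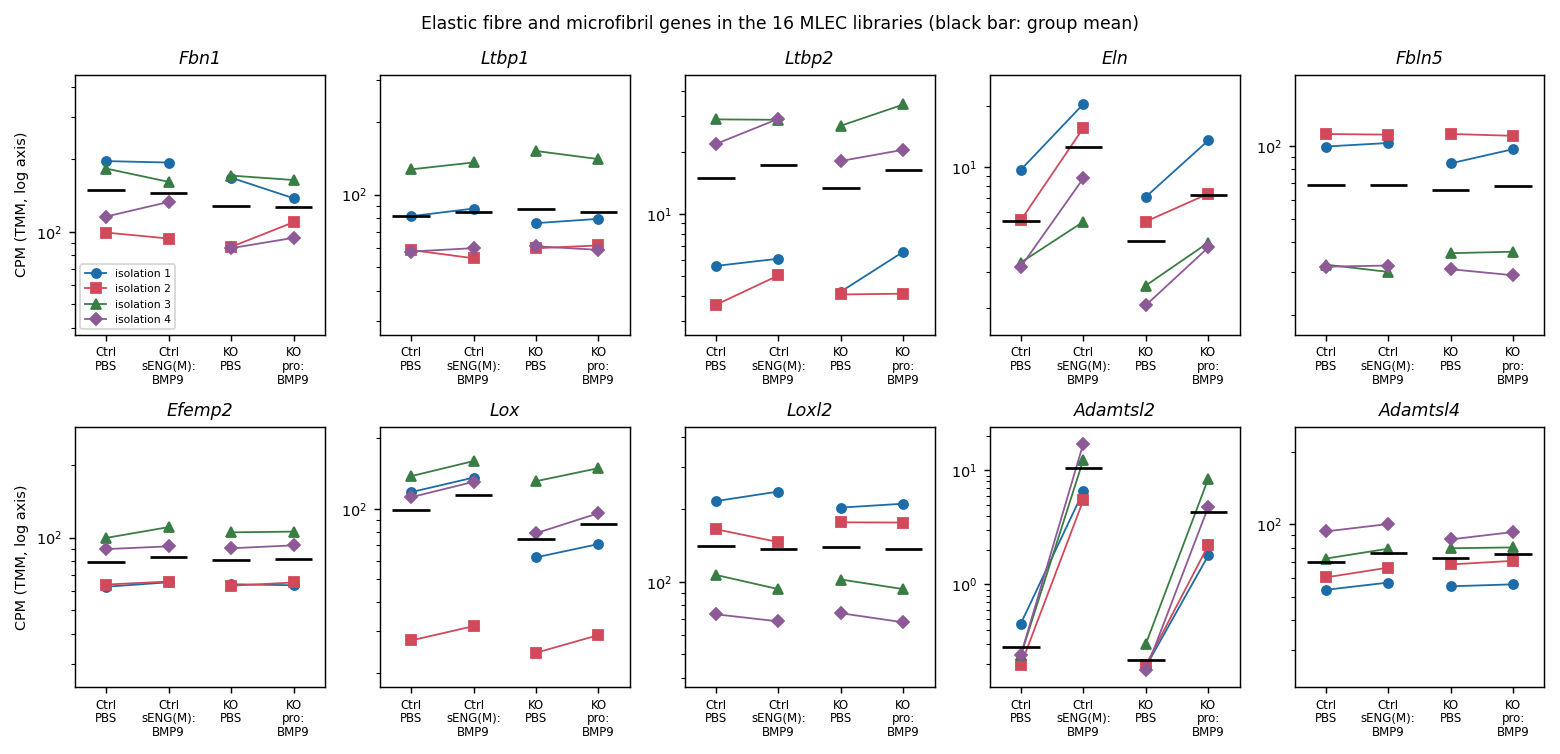
CPM (TMM-normalised, log axis) of each of the 10 genes in the 16 libraries, by group. Each symbol is a library, lines join the PBS- and ligand-treated cells of an isolation and genotype, and black bars are group means of 4 libraries. *Adamtsl2* rose from 0.177 to 0.455 CPM with PBS to 1.79 to 17.2 CPM with ligand and *Eln* rose along every line, while the lines of *Fbln5*, *Efemp2* and *Loxl2* stayed near level and far apart between isolations.

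Among the 10 genes, 2 passed the test in Ctrl cells, both higher (9.69% of the 15693 tested genes passed, 5.86% higher), and 2 in KO cells, both higher (5.59% of all tested genes passed, 3.68% higher). These were *Adamtsl2* and *Eln* in both genotypes. Both were chosen on the ligand-treated libraries of this comparison, and *Adamtsl2* passed the filter only through them, so nothing is read from these counts. The 10 genes had a median log2 fold change of 0.096 with sENG(M):BMP9 and 0.040 with pro:BMP9, and that of all tested genes was -0.0051 and 0.00042. With ligand, 5 of 10 genes were higher in 4 of 4 isolations in Ctrl cells (13.1% of all tested genes) and 5 of 10 in KO cells (12.4%). These counts and the medians include the chosen *Adamtsl2* and *Eln*, so nothing is read from them either.

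The microfibril genes did not pass the test. *Fbn1* (chromosome 2, 125142514 to 125349913), which encodes fibrillin-1, the core of the microfibril, had a log2 fold change of -0.01 (95% interval -0.22 to 0.19) in Ctrl cells and 0.03 (-0.18 to 0.24) in KO cells. *Ltbp1* (chromosome 17, 75312563 to 75699507), whose product anchors latent TGF-β to fibrillin, had 0.04 (-0.08 to 0.16) and -0.02 (-0.14 to 0.10). *Ltbp2* (chromosome 12, 84829986 to 84923306) encodes an LTBP that binds fibrillin-1 but not latent TGF-β. With sENG(M):BMP9 it had 0.23 (SE 0.113, adjusted p = 0.282, edgeR, higher in 3 of 4 isolations) and 0.30 in KO cells (SE 0.116, adjusted p = 0.202, edgeR, higher in 4 of 4). In isolation 4 it went from 22.0 to 29.2 CPM in Ctrl cells, whereas in isolation 3 it was 29.0 and 28.8 CPM.

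The fibulins of elastin assembly did not pass the test either. *Fbln5* (chromosome 12, 101712824 to 101785314), which tethers tropoelastin to microfibrils and cells, had a log2 fold change of -0.0045 (95% interval -0.14 to 0.13) in Ctrl cells and 0.03 (-0.10 to 0.17) in KO cells. *Efemp2* (chromosome 19, 5523982 to 5532545) encodes fibulin-4, which brings lysyl oxidase to tropoelastin. It had 0.07 (-0.0025 to 0.15, higher in 4 of 4 isolations) and 0.02 (-0.06 to 0.10). The intervals of both genes leave out any change as large as that of *Eln*.

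Of the lysyl oxidases, *Lox* (ENSMUSG00000024529, chromosome 18) was higher with ligand by nearly the same factor in every isolation, but did not pass the test. It had 118, 27.5, 138 and 112 CPM in PBS-treated Ctrl cells of isolations 1 to 4 and 136, 31.6, 160 and 131 CPM after sENG(M):BMP9. In KO cells it had 62.1, 24.3, 131 and 78.7 CPM with PBS and 70.8, 29.0, 149 and 95.9 CPM after pro:BMP9. The ratio was 1.15 to 1.16 in the 4 isolations of Ctrl cells and 1.14 to 1.22 in those of KO cells. The fitted log2 fold change was 0.21 (SE 0.116, adjusted p = 0.353, edgeR) and 0.23 (SE 0.121, adjusted p = 0.442, edgeR). When only the 8 libraries of the comparison were fitted, the adjusted p for Ctrl cells was 0.00288 and that for KO cells 0.00195, with log2 fold changes of 0.21 and 0.22. Over the alternatives, the adjusted p ran from 0.00118 to 1.00 in Ctrl cells and from 9.31e-04 to 1.00 in KO cells. *Loxl2* (chromosome 14, 69846517 to 69933283), the most abundant of the 10 per length, had -0.08 (95% interval -0.21 to 0.05) and -0.05 (-0.18 to 0.08).

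*Adamtsl4*, whose product promotes the assembly of fibrillin-1 microfibrils in the eye, moved by much less than its relative *Adamtsl2*. With sENG(M):BMP9 its CPM went from 53.4 to 57.3, 60.2 to 66.0, 72.0 to 79.1 and 93.3 to 100.2 in isolations 1 to 4. The 4 differences were alike (0.10 to 0.14 on the log2 scale), and the fitted value was 0.12 (SE 0.0475, adjusted p = 0.153, edgeR). In KO cells it was 0.05 (SE 0.0476, adjusted p = 0.795, edgeR), higher in 4 of 4 isolations.

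**Figure D2:**
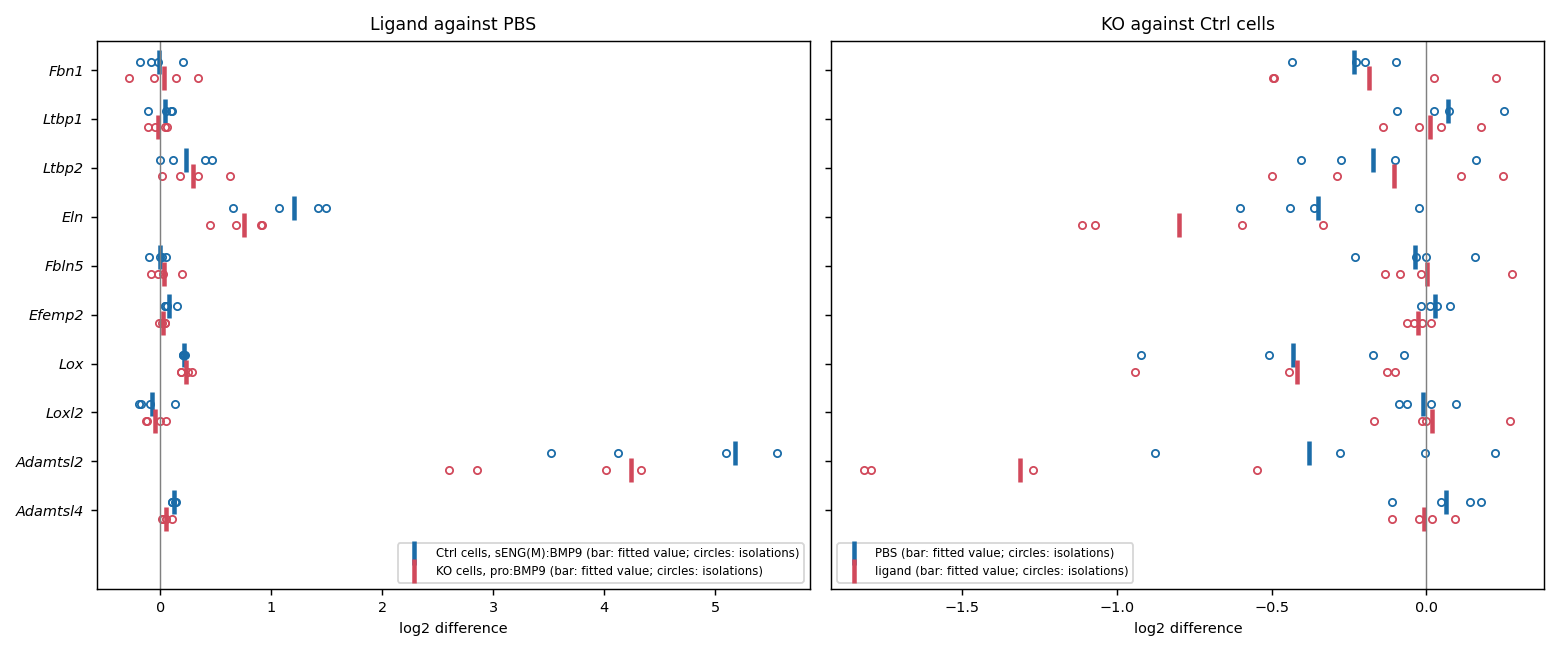
Log2 differences of the 10 genes, ligand against PBS (left) and KO against Ctrl cells (right). Bars are the fitted values and circles the single isolations (prior count 2). *Adamtsl2* (5.18 in Ctrl cells, 4.24 in KO cells) and *Eln* (1.21 and 0.75) lie to the right of the rest on the left panel, and to the left of 0 in 4 of 4 isolations for KO against Ctrl cells with ligand.

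Loss of *Eng* without ligand was examined next in the PBS-treated cells. In this comparison 0 of the 10 genes passed the test in edgeR and 0 in DESeq2 with the block (in edgeR 0.0191% of tested genes passed, which is 3 genes). With a reconstruction of the study's steps (quantile normalisation, ComBat and DESeq2) 1 passed, which was *Lox* with an adjusted p of 0.0252. That reconstruction passed 151 of all tested genes here. The study itself names 3 genes as lower in this comparison, and *Lox* is not one of them. In edgeR, 3 of the 10 genes had an unadjusted p under 0.05 (6.82% of all tested genes). The 3 were *Lox*, *Fbn1* and *Eln*, each lower in the KO cells of 4 of 4 isolations. A value lower in 4 of 4 isolations was found for 3 of 10 genes and for 7.86% of all tested genes. The median log2 fold change was -0.10 over the 10 genes and -0.00089 over all tested genes. These counts include the chosen *Eln*, and the median also includes *Adamtsl2*, so nothing is read from them. *Lox* in PBS-treated KO cells was 52.7%, 88.6%, 95.2% and 70.2% of that in Ctrl cells of isolations 1 to 4. Its log2 fold change was -0.43 (SE 0.120, adjusted p = 0.393, edgeR), and -0.26 without isolation 1, where the gap was widest. *Fbn1* had -0.23 (SE 0.0987, adjusted p = 0.687, edgeR), with 73.9% to 93.5% of the Ctrl level. *Eln* had -0.35 (SE 0.155, adjusted p = 0.700, edgeR), with 64.5% to 98.4% of the Ctrl level.

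Marker sums of other cell types also differed between KO and Ctrl cells in some isolations. The summed CPM of 10 smooth muscle and pericyte markers in PBS-treated KO cells was 66.8%, 102%, 99.4% and 94.2% of that in Ctrl cells of isolations 1 to 4. For 10 fibroblast markers it was 84.3%, 96.3%, 87.8% and 66.3%, and for 4 mesothelial markers 62.6%, 125%, 110% and 91.1%. Of the fibroblast markers, 7 of 10 were expressed highly enough to be tested, *Dpt*, *Tcf21* and *Mfap5* were at 0 in some libraries and under 1 CPM in all, and *Dcn*, a matrix proteoglycan, was lower in KO cells by the test. Over the groups, the fibroblast sum ran from 77.0 to 644 CPM in PBS-treated Ctrl cells and from 74.1 to 565 CPM in PBS-treated KO cells. The smooth muscle sum ran from 85.4 to 352 and from 87.3 to 349 CPM. The part of these cell types in the differences of *Lox*, *Fbn1* and *Eln* was not tested. *Adamtsl2*, at 3 to 7 counts in these libraries, had a log2 fold change of -0.38 with a 95% interval of -1.79 to 1.03. This interval includes a 2-fold difference in its basal level in either direction. From the summed counts, 14 in KO against 18 in Ctrl cells, the ratio was 0.768 (95% exact interval 0.354 to 1.63, counting error only). The 6 other genes had log2 fold changes between -0.17 (*Ltbp2*) and 0.07 (*Ltbp1*).

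With ligand, *Adamtsl2* and *Eln* were both lower in KO cells, which is what they were chosen for. Relative to sENG(M):BMP9-treated Ctrl cells of isolations 1 to 4, pro:BMP9-treated KO cells held 27.5%, 40.1%, 68.1% and 27.8% of *Adamtsl2*. The fitted log2 fold change was -1.31 (SE 0.209). *Eln* was 66.0%, 47.2%, 78.8% and 45.4% of the Ctrl level, with a fitted value of -0.80 (SE 0.131). The ranges of the groups overlapped for both genes, since an isolation with a strong response in KO cells exceeded one with a weak response in Ctrl cells: the KO library of isolation 3 had 8.43 CPM of *Adamtsl2* and the Ctrl library of isolation 2 had 5.49. Among all tested genes 0.255% passed the threshold in this comparison, and these 2 of 10 genes were among them by their choice, so that nothing is read from their number. Without isolation 1 or without isolation 2, 0 of the 10 were among them. *Lox* was also lower in 4 of 4 isolations and did not pass the threshold in edgeR, while with the study's steps its adjusted p was 0.0156. It was at 52.1%, 91.6%, 93.3% and 73.5% of the Ctrl level (fitted value -0.42), nearly the same shares as with PBS. The smooth muscle and pericyte sum with ligand was 65.1%, 102%, 103% and 83.5% of that in Ctrl cells, the fibroblast sum 90.1%, 89.2%, 85.5% and 63.2%, and the mesothelial sum 60.4%, 145%, 100.1% and 112%. By the test, *Pdgfrb* of the smooth muscle and pericyte list and *Dcn* of the fibroblast list were lower in KO cells with ligand. The part of these cell types in the differences with ligand was not tested. The remaining 7 genes lay between -0.19 (*Fbn1*) and 0.02 (*Loxl2*).

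The difference of the ligand responses, KO minus Ctrl, takes the basal level into account. It was -0.93 for *Adamtsl2* on the log2 scale (SE 0.742), and lower in 4 of 4 isolations (-0.77 to -1.54, prior count 2). For *Eln* it was -0.45 (SE 0.204) and lower in 3 of 4 isolations, with isolation 3 at 0.03. The few counts of *Adamtsl2* with PBS set the standard error of its difference, whose 95% interval ran from -2.49 to 0.63. Of the 10 genes, 0 passed the threshold in edgeR, in DESeq2 with the block and with the study's steps, with 1 at an unadjusted p under 0.05, and among all tested genes 0 passed (0%), with 565 (3.6%) at an unadjusted p under 0.05. The other 8 genes lay between -0.07 (*Adamtsl4*) and 0.07 (*Ltbp2*). This comparison and that of ligand-treated KO and Ctrl cells share the libraries on which *Adamtsl2* and *Eln* were chosen.

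The isolation, and not the ligand or the genotype, set most of the variation of 9 of the 10 genes. Of the variance of log2 CPM over 16 libraries, the isolation held 99.1% for *Fbln5*, 98.9% for *Efemp2*, 98.2% for *Ltbp1* and *Loxl2*, 97.3% for *Ltbp2*, 94.4% for *Adamtsl4*, 90.6% for *Lox*, 82.3% for *Fbn1* and 57.0% for *Eln*. The median over all tested genes was 63.8%. For *Adamtsl2* the isolation held 2.91% and the treatment 87.7%, and for *Eln* the treatment held 28.1% and the genotype 10.1%. Both were chosen on their ligand-treated libraries, and *Adamtsl2* passed the filter only through them. Nothing is therefore read from the contrast of their shares with those of the other genes. In the same edgeR fit, 10 of the 10 genes differed between isolations (69.7% of all tested genes), with adjusted p-values from 5.63e-15 (*Fbln5*) to 1.19e-04 (*Adamtsl2*), and in DESeq2 9 of 10. These p-values measure the spread between libraries of the same lines.

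**Figure D3:**
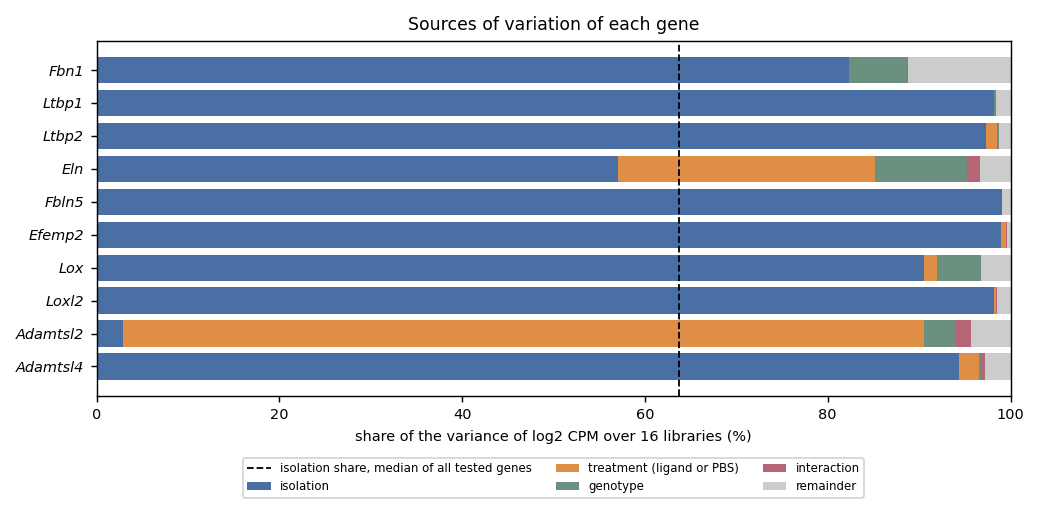
Share of the variance of log2 CPM over 16 libraries (%) held by isolation, treatment, genotype, their interaction and the remainder, for each of the 10 genes. The dashed line is the median isolation share of all tested genes (63.8%). *Adamtsl2* (2.91%) and *Eln* (57.0%), both chosen on their ligand-treated libraries, lie under it and the other 8 genes over it.

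The genes did not follow the isolations in the same way. *Fbln5* averaged 96.1 and 112 CPM in isolations 1 and 2, and 33.7 and 30.9 CPM in isolations 3 and 4 (each over 4 libraries). *Loxl2* went the same way, with 217, 166, 98.8 and 70.9 CPM, as did *Eln* with 12.7, 8.45, 3.88 and 4.51 CPM. The reverse was seen for *Ltbp2*, with 5.60, 4.20, 29.8 and 22.5 CPM, a span of 7.10-fold, and for *Efemp2*, with 63.9, 64.5, 105 and 91.2 CPM. *Adamtsl4* was lowest in isolation 1 (55.6 CPM) and highest in isolation 4 (93.2 CPM). *Ltbp1* was highest in isolation 3 (139 CPM, against 81.1, 58.7 and 59.5 CPM). *Fbn1* was higher in isolations 1 and 3 (174 and 170 CPM) than in isolations 2 and 4 (97.2 and 107 CPM). *Lox* stood out by its low level in isolation 2 (28.1 CPM, against 96.7, 145 and 104 CPM).

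Isolation 2 had the lowest fibroblast, smooth muscle and mesothelial marker sums. Its fibroblast marker sum averaged 75.4 CPM, against 531, 600 and 443 CPM in isolations 1, 3 and 4. Its smooth muscle and pericyte sum was 87.6 CPM, against 277, 357 and 225 CPM, and its mesothelial sum 5.33 CPM, against 278, 163 and 27.6 CPM. Its epithelial sum was the highest, at 171 CPM against 138, 73.7 and 53.6 CPM, and its leukocyte sum was 46.4 CPM against 37.9, 36.4 and 47.1 CPM. The endothelial sum was highest in isolation 2 (7183 CPM) and lowest in isolation 3 (3477 CPM). *Fbn1*, *Ltbp1*, *Ltbp2*, *Lox* and *Adamtsl2* had their lowest mean in isolation 2, where the fibroblast, smooth muscle and mesothelial sums were lowest. For *Ltbp1* (58.7 CPM) and *Adamtsl2* (2.02 CPM) the next isolation was close (59.5 and 2.24 CPM). *Fbln5* was highest in isolation 2, and *Eln*, *Efemp2*, *Loxl2* and *Adamtsl4* were neither highest nor lowest there. The part of other cell types in these levels was not tested. Relative to PBS in the same isolation and genotype, the fibroblast sum with ligand was at 95.8% to 107% and the smooth muscle and pericyte sum at 99.7% to 113%. The mesothelial sum was at 83.1% to 122% in Ctrl cells and 90.9% to 141% in KO cells. The epithelial sum was at 96.2% to 122% and 109% to 113%, and the leukocyte sum at 93.7% to 118% and 101% to 107%. The part of these cell types in the changes with ligand was not tested.

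Which genes shared the pattern of *Adamtsl2* and *Eln* was examined over the 16 libraries after removal of the isolation means, as the root mean square difference of log2 CPM. The 5 genes nearest to *Adamtsl2* were *Atoh8* (0.57), *Gja4* (0.72), *Smad6* (0.73), *Foxc2* (0.80) and *Hey1* (0.81), where the pattern of *Adamtsl2* itself had a root mean square of 2.11. *Smad6* encodes an inhibitory SMAD, and *Atoh8*, *Foxc2* and *Hey1* encode transcription factors of endothelial cells. Their log2 fold changes were 3.17 (*Gja4*) to 3.64 (*Atoh8*) in Ctrl cells and 2.77 (*Foxc2*) to 3.62 (*Atoh8*) in KO cells, smaller than those of *Adamtsl2* in both. The 5 genes nearest to *Eln* were *Cmklr1* (0.22), *Lad1* (0.23), *Dennd5b* (0.24), *Fhdc1* (0.24) and *Spry1* (0.25), with 0.59 for *Eln* itself. The 10 genes under study were left out of this search, so it could not show whether they share a pattern with each other. None of the nearest genes was in the wider elastic fibre list described next.

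A wider list of 43 genes of the elastic fibre, of which 36 were tested, was taken as the surroundings of the 10 genes. The list was chosen with earlier results of these data known, so its counts are given as a description. With sENG(M):BMP9 in Ctrl cells, 5 of 36 rose and 1 fell (5.86% and 3.83% of all tested genes), and with pro:BMP9 in KO cells 3 rose and 1 fell (3.68% and 1.92%). Without the replicate block it was 0 of 36 in both. The 36 genes had a median log2 fold change of 0.040 with sENG(M):BMP9 and 0.031 with pro:BMP9.

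Of 5 integrin subunits, *Itga5* and *Itgav* rose in both genotypes. *Itga5*, the α subunit of the main fibronectin receptor, had a log2 fold change of 0.33 (SE 0.0389, adjusted p = 7.96e-06, edgeR) in Ctrl cells and 0.25 (SE 0.0389, adjusted p = 3.06e-04, edgeR) in KO cells. *Itgav*, the α subunit of receptors that bind fibrillin-1 and latent TGF-β, had 0.36 (SE 0.0480, adjusted p = 3.50e-05, edgeR) and 0.34 (SE 0.0482, adjusted p = 1.20e-04, edgeR). The partner subunits *Itgb1* and *Itgb3* and also *Itgb5* did not pass the test. Of 5 genes of the latent TGF-β complex, *Ltbp4* (log2 fold change 0.25, adjusted p = 0.0200, edgeR) and *Tgfb1* (0.18, adjusted p = 0.00633, edgeR) rose in Ctrl cells. In KO cells their values were 0.12 (adjusted p = 0.510, edgeR) and 0.14 (adjusted p = 0.0564, edgeR), and the differences between genotypes did not pass the test. *Tgfb2* had -0.22 and -0.18, with adjusted p-values of 0.0523 and 0.229 (edgeR).

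Of 5 genes of crosslinking and its supply, *Loxl3*, a lysyl oxidase, rose in Ctrl cells (log2 fold change 0.20, adjusted p = 0.0391, edgeR) and in KO cells (0.22, adjusted p = 0.0374, edgeR). *Atp7a*, the copper transporter that loads lysyl oxidases with their metal, fell by 0.35 on the log2 scale in Ctrl cells (adjusted p = 7.41e-04, edgeR) and by 0.25 in KO cells (adjusted p = 0.0214, edgeR). Of the 2 microfibril core genes, the 7 fibulins and emilins, the 7 ADAMTS-like genes and relatives and the 5 elastin-degrading proteases that could be tested, 0 passed in either genotype in edgeR. At an unadjusted p under 0.05 these groups had 1, 2, 0 and 1 genes in Ctrl cells and 0, 0, 0 and 2 in KO cells. Of all 15693 tested genes, 3072 in Ctrl cells and 2215 in KO cells had such a p, so nothing is read from these counts. The log2 fold changes of the 7 relatives of *Adamtsl2* had a median of -0.07 in Ctrl cells and -0.05 in KO cells. Between KO and Ctrl cells, 0 of the 36 genes passed the test with PBS or with ligand in edgeR and in DESeq2 with the block (in edgeR 0.0191% and 0.255% of all tested genes passed). At an unadjusted p under 0.05 in edgeR there were 2 and 6 genes, against 1071 and 1454 of all 15693 tested genes. With the study's steps, 1 and 2 genes passed, and the numbers over all tested genes are given with the alternatives below.

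**Figure D4:**
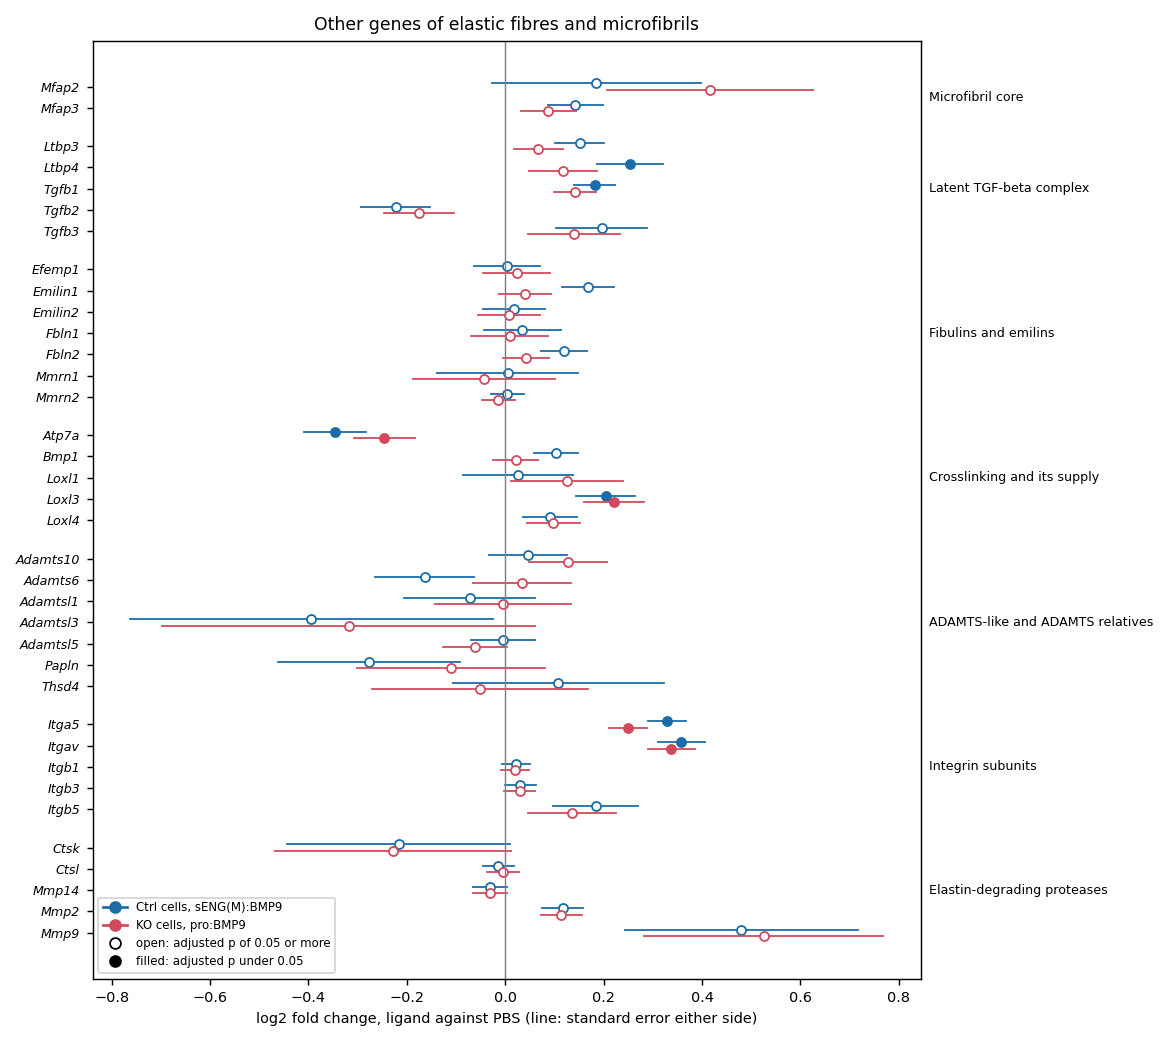
Log2 fold change of the 36 tested genes of the wider list, ligand against PBS, in Ctrl and KO cells, with the standard error either side. Filled symbols passed an adjusted p of 0.05. *Itga5*, *Itgav* and *Loxl3* are filled to the right of 0 and *Atp7a* to the left in both genotypes, and *Ltbp4* and *Tgfb1* only among the Ctrl values.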

How the data were processed

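Total RNA of MLECs from 4 isolations was sequenced as stranded, poly(A)-selected libraries (16 libraries, 4 groups of 4). The authors deposited raw read counts per gene, without normalisation. Per the submitters' processing notes, the tools included HISAT2 2.0.5 and featureCounts 1.5.0-p3, on GRCm39, and the notes also name DESeq2 1.26.0. The study's later steps (quantile normalisation, ComBat, DESeq2) are not part of the deposited counts. The annotation release is not given in the sources used here.

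Symbols, identifiers and coordinates are those of the deposited table, with exon numbers and overlapping genes from GENCODE (GRCm39). Tests used edgeR 4.0.16 in R 4.3.3. The filter on low counts (filterByExpr with the groups, minimum count 10, total of at least 15) kept 15693 genes. Of the listed genes, 29339 had at least 1 count. A quasi-likelihood model with TMM normalisation was fitted to all 16 libraries, with the isolation as a block. The p-values were adjusted over these 15693 genes by Benjamini-Hochberg, with a threshold of 0.05. For single isolations, log2 values were taken with 2 as the prior count. The procedure was tested on simulated data.

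Same-numbered libraries come from the same isolation. After removal of group means, the 24 such pairs correlated across genes with a mean r of 0.757 (lowest 0.670) and the 72 other pairs with one of -0.251. No 2 libraries of a group differed by as little as sampling noise.

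The 10 genes, the wider list and the marker lists were chosen with earlier results of these data known. Named genes are the 10, *Eng*, the wider list, the markers and the 5 genes nearest in pattern to *Adamtsl2* and to *Eln*. Alternatives were no replicate block, DESeq2 1.42.0 with the block, RLE size factors, no filter, at least 10 counts in every library, only the 8 libraries of a comparison, the study's steps with ComBat from sva 3.50.0 (the isolation as batch, an assumption), and each isolation left out. The study's steps were reconstructed from its methods. Between KO and Ctrl cells they passed more genes than the study reported, so their calls do not stand for its own.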

Additional observations from a re-analysis of the deposited data

Results flagged for a closer look

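*Adamtsl2* in PBS-treated KO cells of isolation 3 stood apart from the other 3 libraries of its group, with 0.301 CPM against 0.177 to 0.196 CPM. In counts this is 5 against 3, 3 and 3, a gap of 2 counts. It was the only library to stand apart among the 40 groups of 4 examined (10 genes in 4 groups), and chance alone gives about 1 such library in 20 groups.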

How the results depend on the processing

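The log2 fold change of *Adamtsl2* with ligand ran from 4.78 to 5.65 in Ctrl cells and from 3.92 to 4.47 in KO cells over the main setting and 10 alternatives, and could not be fitted with at least 10 counts in every library. Since *Adamtsl2* passed the filter only through its ligand-treated libraries and its rise was known beforehand, its calls say nothing of stability. The rise of *Eln* with ligand passed in 11 of 12 settings in Ctrl cells and 10 of 12 in KO cells, the main one included. *Eln* was chosen on these ligand-treated libraries too, so its calls add no independent support. The block was kept because each isolation gave all 4 groups.

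Without the replicate block, all tested genes that passed with ligand were 167 in Ctrl and 91 in KO cells, the 10 genes 1 in each (*Adamtsl2*) and the wider list 0 in each. Between KO and Ctrl cells it was 1 gene with PBS and 1 with ligand, and 0 of the 10 with ligand. The replicate block changed no other call of the 10 genes. With at least 10 counts in every library, 1 of the 9 genes left, the chosen *Eln*, passed in each comparison of ligand and PBS. There was also 1 when KO and Ctrl cells with ligand were compared.

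Without a filter, the wider list had 12 calls in Ctrl cells with ligand and 2 for KO against Ctrl cells with ligand, the 10 genes had 2 between KO and Ctrl cells with PBS (*Lox* and *Fbn1*) and 4 with ligand, and all genes had 204 and 517 there and 52 in the difference of responses. With quantile normalisation, ComBat and DESeq2, all tested genes were 1340 in KO cells with ligand, 151 and 533 between KO and Ctrl cells with PBS and ligand, and 14 in the difference. The wider list then had 11 in Ctrl cells with ligand, and 1 and 2 between KO and Ctrl cells with PBS and ligand, and of the 10 genes 1 passed with PBS (*Lox*). DESeq2 with the block gave 7 and 138 genes between KO and Ctrl cells with PBS and ligand, and 1 of the 10 with ligand, where *Adamtsl2* got no adjusted p. Only the 8 libraries of the comparison gave 1 gene between KO and Ctrl cells with PBS. The causes of these shifts were not tested.

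With 1 isolation left out in turn, all genes passing in KO cells with ligand ran from 573 to 745, the 10 genes from 1 to 2 and the wider list from 2 to 4. Between KO and Ctrl cells all genes ran from 1 to 69 with PBS and from 6 to 175 with ligand, and the 10 genes with ligand from 0 to 2.

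Signs turned only for values near 0. *Fbln5* was 0.0047 in Ctrl cells with ligand and -0.018 for KO against Ctrl cells with ligand, both without the block, and -0.0050 in the latter with quantile normalisation and ComBat. *Fbn1* was -0.014 in KO cells with ligand without the block. With isolations left out 1 at a time, log2 values in Ctrl cells with ligand ran from -0.093 to 0.041 for *Fbn1* and from -0.032 to 0.019 for *Fbln5*. In KO cells with ligand it ran from -0.077 to 0.13 for *Fbn1*, from -0.049 to 0.016 for *Ltbp1* and from -0.033 to 0.062 for *Fbln5*. Between KO and Ctrl cells with PBS it ran from -0.00035 to 0.12 for *Ltbp1*, from -0.090 to 0.037 for *Fbln5* and from -0.046 to 0.015 for *Loxl2*. Between those with ligand it ran from -0.043 to 0.061 for *Ltbp1*, from -0.29 to 0.096 for *Ltbp2*, from -0.073 to 0.036 for *Fbln5*, from -0.072 to 0.091 for *Loxl2* and from -0.045 to 0.030 for *Adamtsl4*. The difference of responses ran from -0.084 to 0.15 for *Fbn1*, from -0.073 to 0.22 for *Ltbp2*, from -0.00058 to 0.072 for *Fbln5*, from -0.0040 to 0.038 for *Lox* and from -0.026 to 0.075 for *Loxl2*. Depth limits *Adamtsl2* most, at 3 to 7 counts with PBS.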

Other observations

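The wider list varied between cell lines as the 10 genes did. Of its 36 tested genes, 34 differed between isolations (69.7% of all tested genes did, edgeR), all but *Mfap2* (adjusted p = 0.0624) and *Ctsk* (adjusted p = 0.107). *Mmrn1*, a multimerin of the emilin family, ran from 0 to 70.1 CPM over the 16 libraries, and *Ltbp4* from 26.8 to 152 CPM. The protease *Mmp9* ran from 0.761 to 44.8 CPM, and had a log2 fold change with ligand of 0.48 in Ctrl cells (standard error 0.237) that did not pass the test. Of the 7 genes of the list that were not tested, *Fbn2* reached at most 1.62 CPM and *Mfap4* and *Mfap5* at most 0.603 and 0.302 CPM, so that *Fbn1* was the fibrillin and *Mfap2* and *Mfap3* the microfibril-associated genes with enough counts for a comparison.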
